A study of Caenorhabditis elegans with 16 samples.

Results

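The comparison described here is that of *hsf-1* OE worms with wildtype worms, read across all genes that were counted. *hsf-1* OE is an integrated *C. elegans* line carrying *uthIs235*, an array with *hsf-1* under the *sur-5* promoter and the red fluorescent marker tdTomato under the pharyngeal *myo-2* promoter, each ending in the 3' UTR of *unc-54*. The reference strain is N2, the wildtype laboratory strain, which carries no transgene. Whole animals of both strains were grown on OP50 bacteria at 20 °C and frozen on day 1 of adulthood, and mRNA from 4 biological replicates of each strain was sequenced. These are 8 of the 16 libraries of the series, with 19176204 to 27322650 counts each, and their count table lists 22248 of the 23758 genes counted anywhere in it. The other 8 libraries come from *hsf-1* OE; *ubql-1(tm1574)* and *ubql-1(tm1574)* worms of the same age, and serve below as a second measurement of the transgene, in animals that all carry the deletion allele *tm1574* of the ubiquilin gene *ubql-1*. All *hsf-1* OE animals descend from a single integrated line, so an effect of *hsf-1* dose and an effect of the insertion or of its linked background cannot be told apart, and in whole animals neither can fewer cells of a type and less RNA per cell.

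HSF-1 is the heat shock transcription factor of *C. elegans*. On heat or proteotoxic stress it binds heat shock elements and induces the small and cytosolic HSP70-class chaperones, and in unstressed animals it also acts in larval development and in the germline. The *sur-5* promoter is active in most somatic cells, and adult hermaphrodites are somatic tissue around a large germline that has already made its sperm and is making oocytes.

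*hsf-1* itself (Y53C10A.12, chromosome I, 11953511 to 11961984 in WBcel235) was not higher in the strain named for it. The 4 *hsf-1* OE-labelled libraries had 1626, 2070, 2543 and 1753 normalized counts of it, and wildtype had 2226, 2362, 2085 and 2089. The log2 fold change was -0.13 ± 0.13 (SE, n = 4 each), which passed neither edgeR's quasi-likelihood test (adjusted p = 0.386) nor a two-sided exact permutation test (p = 0.343, where 4 against 4 libraries allow no p under 0.0286). Scaling to the 3 housekeeping genes that the study used for RT-qPCR turned its sign, to 0.24. In the *ubql-1(tm1574)* animals the same gene had 2785, 2334, 3136 and 3056 normalized counts with the transgene and 2263, 2365, 2251 and 2275 without it, a log2 fold change of 0.36 (adjusted p = 0.00577). The *hsf-1* count thus goes against the strain label in the main comparison, so the 4 libraries are called *hsf-1* OE-labelled in what follows, and every direction is theirs relative to wildtype.

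Even so, the strains differed widely. Of 14794 genes with enough counts to test, 3341 were called higher (22.6% of genes tested) and 532 were called lower (3.60%), where a call needs an adjusted p under 0.05 and a log2 fold change beyond 1 in either direction. Without the fold change threshold 5711 genes passed as higher (38.6%) and 4249 as lower (28.7%). All 4 libraries labelled *hsf-1* OE lay above all 4 wildtype libraries for 4885 genes (33.0%) and below them for 4117 genes (27.8%). Large rises were much more common than large falls: 514 genes had a log2 fold change over 3, and 18 had one under -3. The genes called higher were weakly expressed, with a median of 90.8 normalized counts per library against 305 over all genes tested, and they held 5.23% to 8.17% of the counts in the *hsf-1* OE-labelled libraries and 1.30% to 2.51% in wildtype.

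The excess of higher calls depends in part on scaling. The median log2 fold change of all genes tested was 0.28, and higher genes made up 86.3% of calls. This share was 94.7% after scaling to the 3 housekeeping genes, 76.3% with the median-of-ratios method and 65.0% with the median fold change set to 0, while the median of all genes moved by 0.36, -0.17 and -0.28. Lists whose members changed little are therefore read beside that median.

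**Figure D1:**
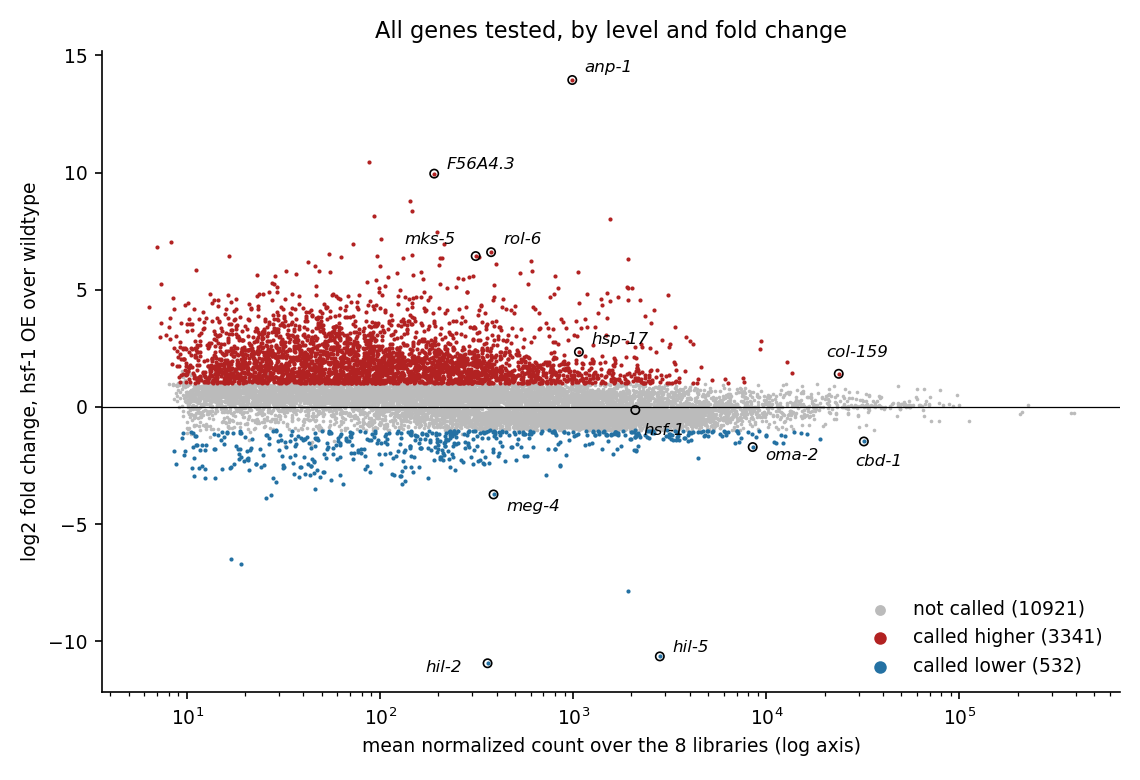
Each point is one of the 14794 genes tested, with its mean normalized count over the 8 libraries on the horizontal log axis and its log2 fold change, hsf-1 OE-labelled libraries over wildtype, on the vertical axis. Red points are the 3341 genes called higher, which lie mostly at low counts, and blue points are the 532 called lower; the fitted values of genes at or near 0 in one strain, such as anp-1 and hil-2, depend on the prior count and only mark their direction.

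The canonical heat shock genes were not raised as a group in the main comparison. Of 8 inducible heat shock genes tested, none was called higher and 1 was called lower, with a median log2 fold change of -0.14. The pair of small heat shock genes *hsp-16.2* and *hsp-16.41*, neighbours on chromosome V whose reads may be shared because their sequences are so alike, varied most in wildtype. *hsp-16.2* had 349, 542, 377 and 268 normalized counts in the *hsf-1* OE-labelled libraries, against 357, 123, 13.3 and 67.5 in wildtype, so that wildtype replicate 1 was as high as the transgenic libraries. Its log2 fold change of 1.45 ± 0.70 did not pass (adjusted p = 0.0900), but it passed with the replicate number as a block (1.99, adjusted p = 0.0301), as did *hsp-16.41* (1.55 without the block, adjusted p = 0.0800, and 2.05 with it, adjusted p = 0.0243). With the block, 2 members of the list were called higher and 0 lower. Leaving out wildtype replicate 1 had the same effect on *hsp-16.2* (2.48, adjusted p = 0.00802). Without that library 3 members of the list were called higher and 0 lower, with a list median of 0.34. Without wildtype replicate 3 or 4, however, 0 were called higher and 2 lower. *hsp-70*, the heat-inducible cytosolic HSP70, had 466, 518, 531 and 324 normalized counts against 991, 226, 94.1 and 170 in wildtype, and its log2 fold change of 0.31 (adjusted p = 0.660) became 1.48 without wildtype replicate 1 (adjusted p = 0.00454) and -0.02 without wildtype replicate 3. The member called lower was *F44E5.5*, an HSP70 gene with the near-identical neighbour *F44E5.4*, at -1.46 (adjusted p = 0.0376), and this call was lost with the block (adjusted p = 0.0991). In the *ubql-1(tm1574)* background 2 of 8 members tested were called higher and 0 lower, with a median of 0.58. There 12.8% of all genes tested were called higher.

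A clear rise was seen for *hsp-17*, a small heat shock protein gene on chromosome V. It had 1487, 1849, 1730 and 2081 normalized counts in the *hsf-1* OE-labelled libraries, against 284, 258, 343 and 516 in wildtype, a log2 fold change of 2.35 ± 0.21 (adjusted p = 7.30e-05), while its log2 fold change in the *ubql-1(tm1574)* background was 2.06, a difference of -0.20 ± 0.25 (SE) that did not pass (adjusted p = 0.698). It was the only one called among 8 other small heat shock genes, of which *hsp-43* (0.69) and *hsp-25* (0.51) rose below the fold change threshold.

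The constitutive folding machinery moved little. Of 19 cytosolic chaperones and co-chaperones 0 were called, while 2 rose and 9 fell without the fold change threshold. *hsp-90* had 56457, 65608, 51948 and 55285 normalized counts, against 75204, 78907, 75048 and 66731 in wildtype (-0.37, adjusted p = 0.00586). Its co-chaperone *daf-41*, the p23 homologue (-0.36), the ubiquitin ligase *chn-1*, the CHIP homologue (-0.74), the HSP70 exchange factor *bag-1* (-0.51) and *hsb-1*, which encodes an inhibitor that binds HSF-1 (-0.43), also fell, and all of these were chosen after their values were seen. Under scaling to housekeeping genes the list median turned from -0.20 to 0.15 and only *chn-1* of these 5 kept an adjusted p under 0.05. The 8 subunits of the CCT chaperonin lay between -0.33 and -0.07, and that list's median of -0.20 also turned to 0.16. Among 24 genes of ER folding and ER-associated degradation, *uggt-2*, a glycoprotein glucosyltransferase gene, was called higher (2.91, adjusted p = 8.47e-05). It overlaps *hsp-70* on the opposite strand, and since strand use in counting is not given in the sources used here, reads of the overlap cannot be assigned.

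The HSF-1 targets that the study silenced in its lifespan screen were not raised as a group either. Of 96 such genes 91 were tested, 5 were called higher (against 22.6% of all genes) and 0 lower, with a median of -0.18 that became 0.18 under scaling to housekeeping genes. Without the fold change threshold 15 rose and 42 fell. The 5 called were *ZK1240.1* (2.997), *F25F2.1* (1.89), *cdd-1*, a cytidine deaminase gene (1.37), *sup-26*, an RNA-binding protein gene (1.02), and *nhr-47*, a nuclear receptor gene (1.01). *F25F2.1* had 637, 537, 591 and 528 normalized counts, against 146, 81.0, 197 and 193 in wildtype, and *sup-26* had 1350, 1261, 1197 and 1445, against 606, 626, 681 and 669. Neither gene overlapped between the strains. The count of members called higher was 8 with housekeeping scaling and 3 with the median fold change set to 0, when 3 were also called lower, and *sup-26* and *nhr-47* fell below the fold change threshold under most alternatives. It was 3 without any single library labelled *hsf-1* OE, whichever of the 4 was left out.

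The largest group of rises was in the cuticle. *C. elegans* builds its collagen cuticle anew at each moult, and most collagen genes are transcribed in pulses that precede a moult and are low in between. Of 120 *col-* genes tested 84 were called higher and 0 lower, with a median log2 fold change of 2.68. Of 20 collagens in which mutation changes body shape, 19 were called higher, with a median of 5.07. Of 19 genes of moulting and the apical matrix, 11 were called higher, with a median of 2.44.

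*rol-6* (T01B7.7, chromosome II, 8733050 to 8734314), a body-shape collagen gene, had 76.0, 289, 526 and 2077 normalized counts in the *hsf-1* OE-labelled libraries, against 10.02, 1.08, 10.9 and 8.23 in wildtype. *bli-2*, needed for the adult cuticle, had 97.7, 247, 598 and 2184, against 13.4, 2.16, 13.3 and 15.6. Replicate 1 was lowest and replicate 4 highest in both, yet no library overlapped the wildtype range. *mlt-11*, which encodes a protease inhibitor needed for moulting, had 108, 376, 607 and 1949, against 18.9, 20.5, 22.9 and 20.6 in wildtype. The log2 fold changes were 6.60 ± 1.11 for *rol-6*, 6.10 ± 1.06 for *bli-2* and 5.19 ± 0.84 for *mlt-11*, with adjusted p-values of 0.000817, 0.000952 and 0.000662. The further body-shape and moulting genes *sqt-1* (5.81), *sqt-2* (6.21), *dpy-7* (5.14), *lpr-3* (5.48) and *mlt-8* (4.35) were similar, as were the matrix genes *grl-7* (6.36), *grl-5* (5.76) and *lpr-5* (5.73) and *dao-4* (6.34).

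The spread between libraries was shared by these genes. The summed normalized counts of the 20 body-shape collagens were 3068, 10634, 20440 and 56670 in the *hsf-1* OE-labelled libraries, against 1203, 894, 1811 and 1242 in wildtype, and 19 of the 20 were lowest in replicate 1 and 19 highest in replicate 4. The moulting list summed to 4083, 6831, 7924 and 18282, against 3088, 3634, 3672 and 3454. Leaving out either end changed the calls little: without replicate 1 of the *hsf-1* OE-labelled libraries 19 body-shape collagens and 11 moulting genes were called higher, and without replicate 4 there were 17 and 11. Whether the libraries differ in how near their animals were to the last moult was not tested.

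The most abundant cuticle genes rose less. *col-159* had 22972, 35802, 43248 and 35784 normalized counts, against 10201, 10156, 17068 and 14309 in wildtype, a log2 fold change of 1.41 ± 0.22. *col-92* (1.46), *col-147* (1.93), *col-39* (2.47) and *col-133* (2.79) were also among the 10 most abundant genes called higher. *col-19*, a collagen specific to the adult cuticle, did not pass, with 53381, 56093, 49466 and 42062 normalized counts against 41896, 47366, 47753 and 46446 in wildtype (0.13, adjusted p = 0.248), and its sign turned under other scalings. The adult collagens *col-7* (2.79) and *col-62* (2.68) were called higher.

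Regulators of the moulting cycle moved less evenly. *lin-42*, the homologue of Period that oscillates with the moults, had 111, 268, 576 and 1816 normalized counts, against 100, 126, 111 and 109 in wildtype (2.63 ± 0.72, adjusted p = 0.00994), with replicate 1 inside the wildtype range. *bed-3*, a zinc finger gene needed for moulting, was called higher (1.83, adjusted p = 0.0305), but not with the replicate block (1.41, adjusted p = 0.0683), nor without wildtype replicate 1, 3 or 4, nor without replicate 4 of the *hsf-1* OE-labelled libraries (0.72, adjusted p = 0.121). *blmp-1*, a transcription factor gene of the same cycle, rose below the threshold (0.83), while *nhr-23*, the nuclear receptor that drives larval moults, fell slightly, with 1302, 1114, 1097 and 1156 normalized counts against 1481, 1518, 1460 and 1449 in wildtype (-0.34, adjusted p = 0.00316), and turned to 0.02 under scaling to housekeeping genes. *blmp-1* and *nhr-23* were chosen after their values were seen.

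**Figure D2:**
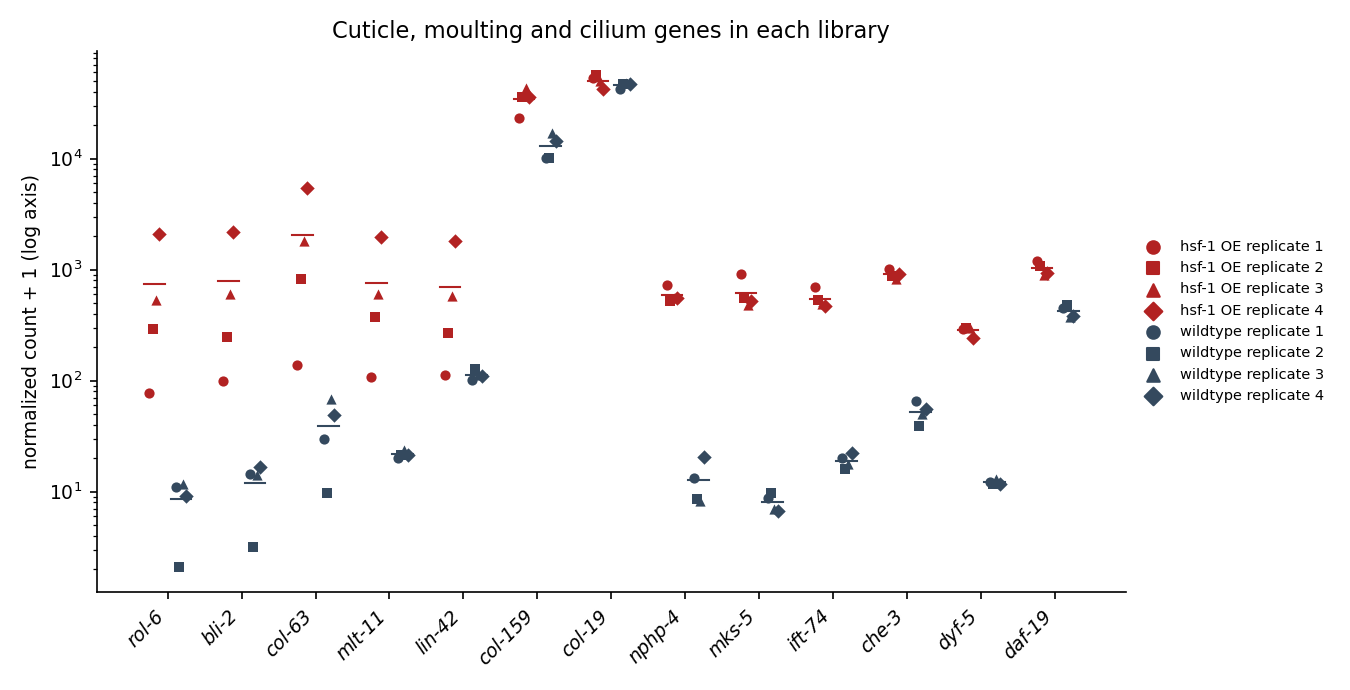
Normalized counts plus 1, on a log axis, of cuticle, moulting and cilium genes in each library, with the hsf-1 OE-labelled libraries in red to the left of wildtype in dark blue, a symbol shape per replicate number and a bar at each group mean. The cuticle and moulting genes from rol-6 to lin-42 spread widely among the red libraries with replicate 1 lowest and replicate 4 highest, while the cilium genes from nphp-4 to dyf-5 keep together and far from wildtype.

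Genes of sensory cilia rose strongly and evenly. Cilia occur only on sensory neurons in *C. elegans*, and their genes are controlled by the RFX factor DAF-19. Of 28 cilium and intraflagellar transport genes tested, 17 were called higher and 1 lower, with a median of 1.33. The list summed to 5710, 5089, 4882 and 4996 normalized counts in the *hsf-1* OE-labelled libraries, against 1240, 1237, 1263 and 1191 in wildtype. None of the 15 genes of the neuronal synapse and vesicle list was called in either direction, although 7 rose without the fold change threshold (median 0.50), and 4 were called higher with housekeeping scaling.

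*mks-5* (C09G5.8, chromosome II, 10720231 to 10729252), a gene of the ciliary transition zone, had 920, 550, 482 and 516 normalized counts, against 7.79, 8.65, 6.03 and 5.76 in wildtype. Its log2 fold change was 6.44 ± 0.30 (adjusted p = 1.99e-06). *nphp-4*, another transition zone gene, had 725, 525, 550 and 557, against 12.2, 7.56, 7.24 and 19.8 (5.59 ± 0.30), and overlaps 4 genes on the opposite strand. The spread among the libraries of a strain was small beside these differences, as it was for the genes that follow. *ift-74*, of the intraflagellar transport particle, had 701, 530, 488 and 469, against 18.9, 15.1, 16.9 and 21.4 (4.90 ± 0.20). *dyf-5*, a kinase gene for cilium length, had 293, 299, 298 and 242, against 11.1, 10.8, 12.1 and 10.7 (4.65 ± 0.17).

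*che-3*, the heavy chain of the dynein that returns cargo from the ciliary tip, had 1009, 869, 828 and 908 normalized counts, against 64.6, 37.8, 49.5 and 54.3 in wildtype (4.13 ± 0.17). *maph-9*, the homologue of the microtubule-associated protein MAP9, had 493, 361, 392 and 344, against 1.11, 5.40, 7.24 and 9.05 (6.05 ± 0.36). Neither gene overlapped between the strains. *daf-19* itself had 1184, 1072, 893 and 940, against 454, 477, 375 and 379 (1.28 ± 0.12, adjusted p = 8.99e-05). The member called lower was *ifta-1*, of the retrograde transport complex (-1.05). *che-3* and *daf-19* were chosen after their values were seen.

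In the *ubql-1(tm1574)* background these rises were partly kept. There 12 of 27 cilium genes tested were called higher and 0 lower, with a median of 0.63, where 12.8% of all genes tested were called higher. *che-3* had 3.29 and *mks-5* 4.17, but *daf-19* had -0.27 (adjusted p = 0.275) and *dyf-3*, a further cilium gene, 0.37 (adjusted p = 0.345) against 2.95 in the main comparison. The difference between backgrounds passed for *daf-19* (-1.48, adjusted p = 0.0214), *dyf-3* (-2.50, adjusted p = 0.0126) and *maph-9* (-2.78, adjusted p = 0.0408), and not for *che-3* (adjusted p = 0.347) or *mks-5* (adjusted p = 0.148). *dyf-3* was chosen after its values were seen, and over all genes the difference passed for 0.658%.

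Sperm genes were higher in the *hsf-1* OE-labelled libraries than in wildtype. Hermaphrodites make sperm only before adulthood, so sperm transcripts normally decline as oocytes form. Of 95 sperm and spermatogenesis genes tested 53 were called higher and 0 lower, and 84 rose without the fold change threshold, with a median of 1.09. Their summed normalized counts were 177575, 148582, 163965 and 140818 in the *hsf-1* OE-labelled libraries, against 78515, 50505, 97358 and 110433 in wildtype. The groups did not overlap. The count of members called higher was 34 with the median fold change of all genes set to 0, 84 with housekeeping scaling, 40 without replicate 1 of the *hsf-1* OE-labelled libraries and 64 without wildtype replicate 4. In the *ubql-1(tm1574)* background only 16 of 95 were called higher, where 12.8% of all genes tested were, and the list median was 0.24.

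*msp-74*, a major sperm protein gene, had 118, 125, 228 and 130 normalized counts, against 5.57, 0, 8.45 and 7.41 in wildtype (4.77 ± 0.53, adjusted p = 0.000152). *spe-21*, of spermatogenesis, had 61.5, 63.9, 81.6 and 86.1, against 8.91, 6.48, 12.1 and 12.3 (2.86 ± 0.27), and *spe-19*, needed for sperm activation, had a log2 fold change of 2.83. Of 34 *spe-* genes 28 were called higher and 0 lower. The *msp-* genes are near copies of one another whose reads could be shared. Of 33 tested 8 were called higher, a share near the 22.6% of all genes. Without the fold change threshold 28 rose, against 38.6% of all genes.

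Members of some protein domain families were often called higher. All 39 genes with a WSN domain that were tested were called higher, with log2 fold changes from 1.08 to 3.19, and summed to 11978, 11137, 13208 and 11194 normalized counts, against 2851, 1560, 3843 and 4394 in wildtype. Of 90 protein tyrosine phosphatase genes 73 were called higher and 2 lower, and of 64 metallophosphatase genes 37 were called higher and 0 lower. Without the fold change threshold 81 phosphatase genes of the first family rose and 6 fell, and 47 of the second rose and 11 fell. Of all genes tested 22.6% were called higher and 3.60% lower, and 38.6% rose and 28.7% fell without that threshold. These domain families are among 56 with at least 20 tested members, taken from the family labels deposited with the counts. They were chosen after their values were seen.

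Oocyte, eggshell and germline genes ran the other way. Of 28 oocyte and eggshell genes tested 18 were called lower and 0 higher, against 3.60% of all genes called lower, with a median of -1.12. The count was 7 with housekeeping scaling and 25 with the median fold change of all genes set to 0. The list summed to 233840, 197488, 142250 and 151984 normalized counts, against 371913, 453952, 372590 and 337919 in wildtype. *cbd-1*, a chitin-binding protein gene of the eggshell, had 20770, 20953, 11978 and 14056, against 44793, 58975, 42913 and 41372 (-1.47 ± 0.20, adjusted p = 0.000294). *oma-2*, needed for oocyte maturation, had 5506, 4348, 2842 and 3188, against 12022, 15278, 13347 and 11402 (-1.71 ± 0.20). For both genes every library labelled *hsf-1* OE lay below every wildtype library, with replicates 3 and 4 lowest.

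Further genes with roles in oocytes or early embryos were called lower. *pos-1*, an RNA-binding protein gene that patterns the early embryo, had 8022, 5861, 4336 and 4638 normalized counts, against 15673, 19073, 16475 and 15232 in wildtype (-1.54). The eggshell gene *cpg-1* (-1.37), the yolk receptor gene *rme-2* (-1.11), *puf-5*, a translational repressor gene of oocytes (-1.25), *spn-4* (-1.52) and the Nanos homologue *nos-2* (-1.78) also fell. *meg-4* (C36C9.1, chromosome X, 1682952 to 1686383), a germ granule gene, fell most among them, with 59.7, 60.3, 39.7 and 55.4 normalized counts against 762, 858, 660 and 593 (-3.73 ± 0.18, adjusted p = 2.51e-06).

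Genes of cell division fell with the oocyte genes. All 29 DNA replication genes and all 29 mitotic cell cycle genes tested fell without the fold change threshold, with medians of -0.86 and -0.75, and 9 and 5 of them were called lower. Of 32 germline nuclear and meiotic genes 30 fell and 2 were called lower, with a median of -0.59. Scaling to housekeeping genes left 25, 19 and 17 of the 3 lists falling without the fold change threshold, and none of the list medians turned. The counts called lower were 0, 2 and 0 under that scaling, and 22, 17 and 10 with the median fold change of all genes set to 0. *rnr-2*, the small subunit of ribonucleotide reductase, had 5764, 4400, 3284 and 3543 normalized counts, against 10235, 11664, 10231 and 10121 in wildtype (-1.31). *cyd-1*, cyclin D, had 49.7, 37.4, 28.2 and 52.3, against 161, 193, 154 and 171 (-2.02). In both genes replicate 3 was the lowest of the *hsf-1* OE-labelled libraries. *glp-1*, the Notch receptor of germline stem cells, had 3082, 2518, 2208 and 2364, against 5687, 5601, 5161 and 5152 (-1.09). *orc-1* (-1.33), *psf-1* (-1.12), the cyclin B gene *cyb-3* (-1.51), *cdc-25.1* (-1.05) and the X-chromosome pairing gene *him-8* (-1.01) were called lower as well.

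How many of these genes pass the fold change threshold rests on replicate 1 of the *hsf-1* OE-labelled libraries, which held the highest value of the 4 for 319 of the 532 genes called lower. Without it 1158 genes were called lower over all, and 20 replication, 14 mitotic and 6 meiotic genes. Without wildtype replicate 2 the 3 lists had 6, 3 and 1, and without wildtype replicate 3 the meiotic list had 1. The principal component analysis of the 8 libraries put 78.8% of the variance on an axis that separated the strains, along which replicate 1 lay nearest to wildtype.

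The lists of sperm, oocyte and moulting genes move with strain across all 8 libraries, and whether the *hsf-1* OE-labelled libraries came from adults at a different point after the last moult, or with a different amount of germline, was not tested. Yolk protein genes, made in the adult intestine, were not called. The 6 vitellogenins summed to 1447590, 1376250, 793271 and 744467 normalized counts, against 1495400, 1741040, 1189270 and 1085180 in wildtype, and 0 of the 6 passed the test (median -0.44). Each sum was lower in the *hsf-1* OE-labelled library than in the wildtype library of the same number, and with the replicate block all 6 passed as lower, by less than the fold change threshold (median -0.57). *vit-3*, whose sequence is near-identical to that of other vitellogenins, had 99440, 89970, 38055 and 21953 against 117068, 121022, 75285 and 60152 (-0.58, adjusted p = 0.263), which passed with the block below the fold change threshold (-0.77, adjusted p = 0.0108).

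**Figure D3:**
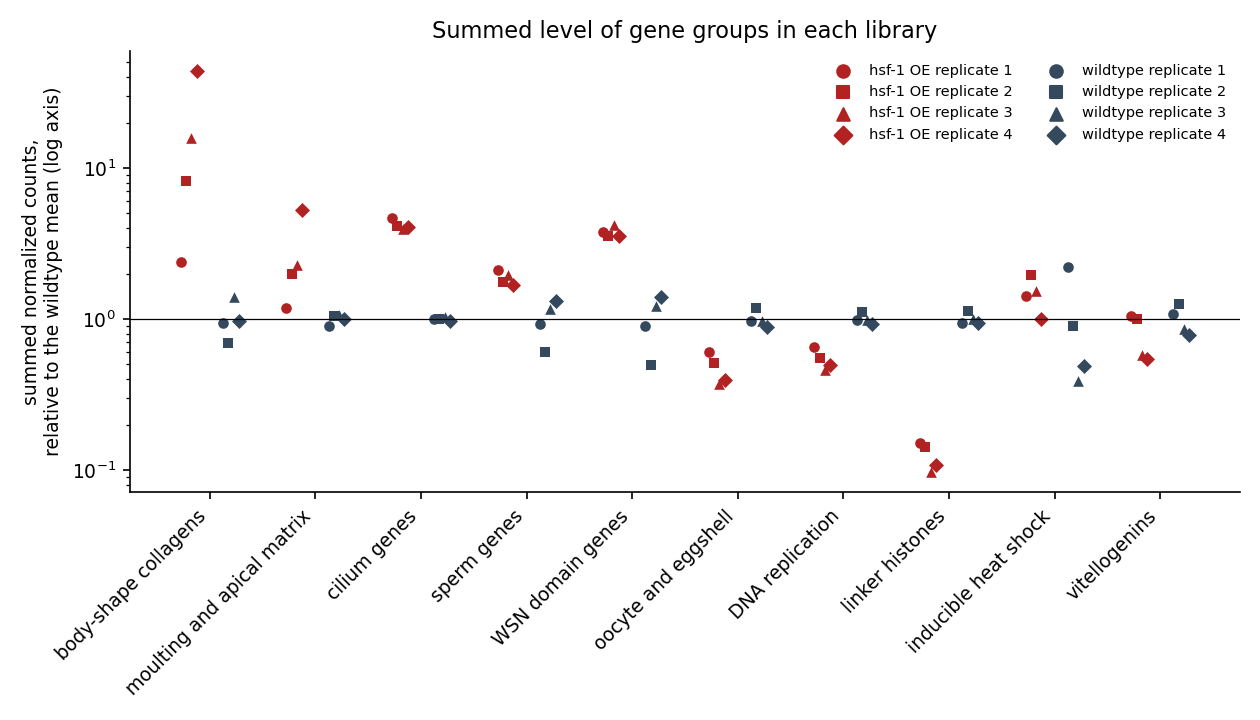
Summed normalized counts of gene groups in each library, divided by the wildtype mean of the group, on a log axis, with the hsf-1 OE-labelled libraries in red to the left of wildtype in dark blue and a symbol shape per replicate number. Body-shape collagens climb far above wildtype but spread over more than an order of magnitude, cilium, sperm and WSN domain genes sit above wildtype in all 4 red libraries, oocyte, replication and linker histone genes sit below, and the inducible heat shock genes and vitellogenins overlap.

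The steepest falls were in linker histones, the H1-class proteins that compact chromatin between nucleosomes. Of 9 such genes 6 were tested and 5 were called lower in both the main comparison and the *ubql-1(tm1574)* background. *hil-5* (B0414.3, chromosome I, 5774585 to 5775610) had 5.43, 1.83, 1.05 and 5.13 normalized counts, against 5041, 6261, 5872 and 5251 in wildtype. The ratio of summed counts, wildtype over the *hsf-1* OE-labelled libraries, was 1646 (exact 95% counting interval 981 to 3012). *hil-2* (Y73B6BL.9), on chromosome IV from 6294240 to 6295210, had 0, 0, 0 and 1.03, against 746, 779, 688 and 662, which is 1 count against 2765 (ratio of wildtype over the *hsf-1* OE-labelled libraries 2954, interval 529.8 to 116737). *hil-3* had 0, 0, 1.05 and 0, against 47.9, 40.0, 25.3 and 20.6 (ratio 135, interval 23.7 to 5359).

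*hil-4* was lower but far from silent, with 1970, 1857, 1227 and 1373 normalized counts against 6980, 8236, 6941 and 6731 in wildtype (-2.17 ± 0.16, adjusted p = 2.32e-05). *his-24*, the most studied H1 gene of the worm, had 0, 5.48, 1.05 and 8.20, against 46.8, 75.6, 39.8 and 40.3 (-3.75). *hil-1* did not pass (0.30, adjusted p = 0.279). Since the libraries were made from mRNA selected on poly-dT, the low counts of histone genes whose transcripts lack a poly(A) tail are a fraction of their transcripts.

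Core histones split. Of 25 tested 11 were called lower and 2 higher, with a median of -0.89, and 7 were called lower with housekeeping scaling. *his-32*, an H3 gene, had 0, 0, 0 and 1.03 normalized counts, against 36.7, 27.0, 50.7 and 36.2 (ratio of wildtype over the *hsf-1* OE-labelled libraries 154, interval 27.2 to 6119), and *his-60* fell by 2.78 on the log2 scale. *his-70*, an H3.3-type gene, rose, with 279, 269, 397 and 281 against 46.8, 24.9, 59.1 and 87.2 in wildtype (2.48), as did *his-73* (2.66). Many core histone genes are copies with shared reads.

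In all, 11 genes were present in one strain and at or near 0 in the other, by a limit of 3 counts in every library of one strain and 100 normalized counts on average in the other. Of these 10 were present in the *hsf-1* OE-labelled libraries and 1, *hil-2*, in wildtype. *anp-1* (T07F10.1), on chromosome V from 12859381 to 12863833, had 1731, 2162, 1871 and 2132 normalized counts, against 0 in all 4 wildtype libraries, and was at least 623-fold higher when wildtype is put at 3 counts per library. It overlaps *nspg-1* on the opposite strand. *K02E7.6* (chromosome II, 1057183 to 1059271) had 154, 224, 180 and 139, against 0 in all 4, at least 55.0-fold higher, but it also had 0 counts in all 4 *hsf-1* OE; *ubql-1(tm1574)* libraries, which carry the same transgene. Floors and intervals cover counting error only, since the reads carry no molecular identifiers.

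*F56A4.3* and *irld-35* are neighbours on chromosome V (2453414 to 2456147 and 2456176 to 2458286). *F56A4.3* had 378, 525, 391 and 227 normalized counts, against 0, 1.08, 0 and 0 in wildtype, or 1588 counts against 1 (ratio 1486, interval 266 to 58737). *irld-35* had 131, 163, 88.9 and 45.1, against 0, 3.24, 0 and 0.823 (ratio 106, interval 41.1 to 391). Both genes kept their difference in the *ubql-1(tm1574)* background, with log2 fold changes of 8.09 and 6.96 there.

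*F56D2.3* (chromosome III) had 216, 215, 177 and 195 normalized counts, against 1.11, 1.08, 1.21 and 1.65 (ratio 156, interval 66.6 to 482), and the difference between backgrounds passed for it (-3.16, adjusted p = 0.0191). *W09B7.1* (chromosome V) had 121, 523, 347 and 177, against 0, 1.08, 0 and 1.65 (ratio 378, interval 129 to 1836). The other 4, *ZK1025.3*, *dpy-3*, *lpr-4* and *col-182*, followed the body-shape collagens, with replicate 4 of the *hsf-1* OE-labelled libraries highest.

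**Figure D4:**
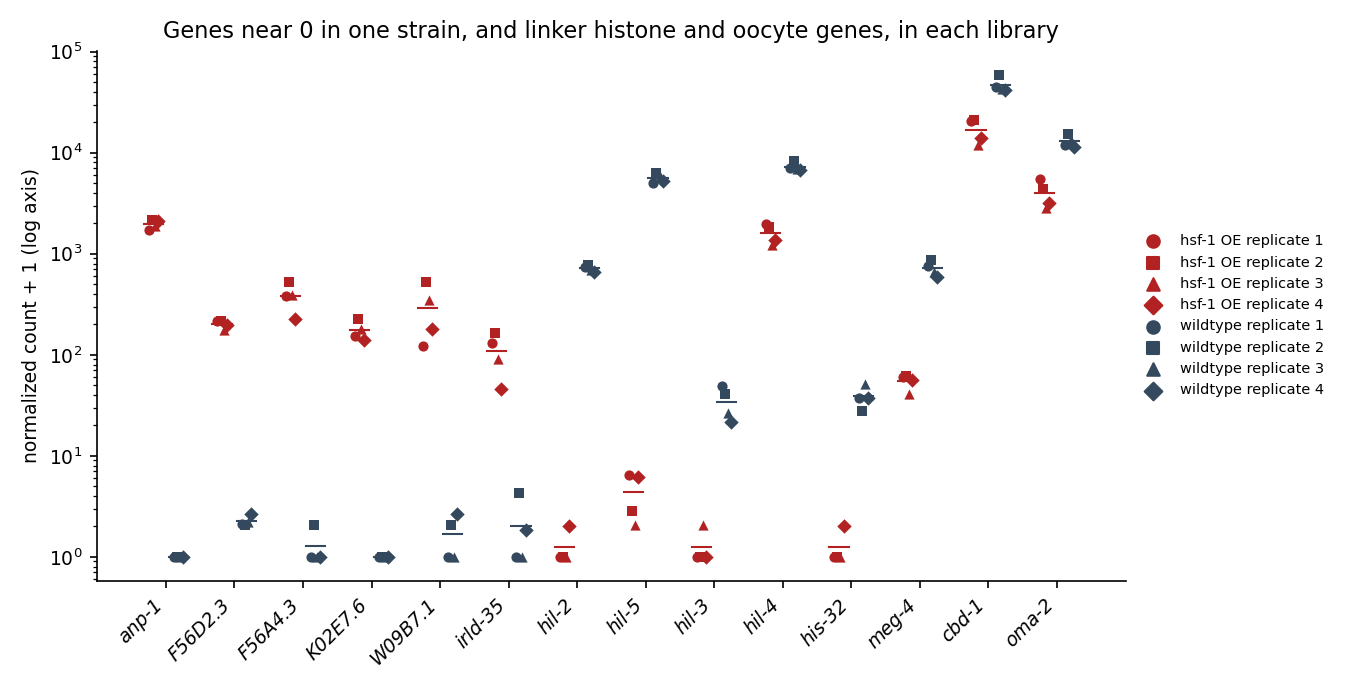
Normalized counts plus 1, on a log axis, of genes present in only one strain and of linker histone, histone H3 and oocyte genes, with the hsf-1 OE-labelled libraries in red to the left of wildtype in dark blue and a bar at each group mean. The genes anp-1 to irld-35 are at or near 1 on this axis in wildtype, that is at or near 0 counts, hil-2, hil-5, hil-3 and his-32 are so in the red libraries, and hil-4, meg-4, cbd-1 and oma-2 are lower there without reaching 0.

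Genes of protein turnover and mitochondrial dynamics, the subject of the study, mostly changed by small amounts. CDC-48 with its cofactors UFD-1 and NPL-4 extracts ubiquitinated proteins from membranes for degradation by the proteasome. All 5 genes of the complex fell without the fold change threshold, and 0 were called, with a median of -0.46 that shrank to -0.10 under scaling to housekeeping genes, where none of the 5 passed. Other alternatives went the other way for *npl-4.1*. It was called lower with RLE scaling (-1.01), with the median fold change set to 0 (-1.12) and with DESeq2 (-1.04). *cdc-48.1* had 13952, 13470, 11233 and 12479 normalized counts, against 17870, 19764, 17869 and 16216 in wildtype (-0.49 ± 0.09, adjusted p = 0.00123). *ufd-1* (-0.46), *npl-4.1* (-0.84), *npl-4.2* (-0.44) and *cdc-48.2* (-0.26, and 0.09 under scaling to housekeeping genes) followed; *npl-4.1* and *npl-4.2* are near copies whose reads could be shared.

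Of 32 proteasome genes 30 fell without the fold change threshold and 0 were called, with a median of -0.37, against 28.7% of all genes that fell. Scaling to housekeeping genes reduced the 30 to 3, with a median of -0.01. The 3 housekeeping genes themselves fell without the fold change threshold, with a median of -0.38. The polyubiquitin gene *ubq-1*, chosen after its values were seen, fell in the main fit (-0.53, adjusted p = 0.000937) and did not pass under that scaling.

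Of 12 genes of mitochondrial fusion, fission and mitophagy 8 fell and 1 rose without the fold change threshold, against 28.7% and 38.6% of all genes. The list median was -0.39 (-0.03 under scaling to housekeeping genes). The only member called was *fis-1*, a fission adaptor gene, which makes 8.33% called higher against 22.6% of all genes. *fis-1* had 226, 206, 192 and 189 normalized counts against 90.2, 47.5, 95.3 and 114 in wildtype (1.22 ± 0.25, adjusted p = 0.00198). *drp-1*, the fission dynamin, fell, with 2702, 2499, 2156 and 2445 against 3700, 3777, 3498 and 3523 (-0.56, adjusted p = 0.000339). The fusion genes *fzo-1* (-0.41) and *eat-3* (-0.37) and the mitophagy kinase gene *pink-1* (-0.58) fell too, the 2 fusion genes not under that scaling. *drp-1*, *fzo-1*, *eat-3* and *pink-1* were chosen after their values were seen. Of 11 genes of the mitochondrial unfolded protein response and of 32 of the nuclear-encoded respiratory chain, 0 were called in either direction.

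Autophagy genes split in the same way. Of 28 tested 3 were called higher (10.7%, against 22.6% of all genes) and 0 lower. Without the fold change threshold 4 rose and 13 fell, where 28.7% of all genes fell. The list median of -0.22 turned to 0.14 under scaling to housekeeping genes, where 10 rose and 5 fell without that threshold. *epg-5*, needed for fusion of autophagosomes with lysosomes, had 1205, 1247, 1083 and 1166 normalized counts, against 367, 407, 321 and 376 in wildtype (1.67 ± 0.10, adjusted p = 5.94e-06). *sqst-1*, the p62 homologue, had 1537, 2831, 3124 and 4989, against 936, 1179, 965 and 1257 (1.52). *atg-4.2*, a protease gene for LGG-1 processing, was higher as well (1.32). None of the 3 overlapped between the strains, and *sqst-1* had its lowest transgenic value in replicate 1.

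Metabolic lists held a few genes with large rises. The shares called higher were 28.6% for lipid breakdown, 13.6% for desaturation and elongation and 18.2% for one-carbon genes, beside 22.6% of all genes. *lipl-1*, a lysosomal lipase gene, had 255, 340, 101 and 54.3 normalized counts, against 14.5, 28.1, 34.99 and 5.76 in wildtype (3.20 ± 0.67), and *lipl-2* (2.29) and *lipl-3* (2.39) were among the 4 called higher of 14 lipid breakdown genes. Of 22 genes of fatty acid desaturation and elongation 3 were called, the elongases *elo-4* (2.66), *elo-7* (2.65) and *elo-8* (2.48). *elo-7* had 251, 205, 265 and 216, against 37.9, 13.0, 45.9 and 51.8. *cbs-2*, a cystathionine beta-synthase gene, had 651, 646, 768 and 672, against 90.2, 34.6, 112 and 140 (2.85), and with *sams-5* (1.24) made up the calls among 11 one-carbon genes. Without the fold change threshold 5 rose and 2 fell in the lipid breakdown list, 6 rose and 2 fell among desaturation and elongation genes, and 4 rose and 1 fell among one-carbon genes. These elongases and *cbs-2* were lowest in wildtype replicate 2, the library in which the summed sperm genes were lowest.

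Somatic tissue lists differed in how many members were called. Of 13 intestinal genes 3 were called higher (23.1%, against 22.6% of all genes), *cpr-1*, a cathepsin B gene, with 5752, 4544, 5635 and 6635 normalized counts against 1894, 2035, 2277 and 1702 (1.51 ± 0.13), the intermediate filament gene *ifb-2* (1.20) and the transporter gene *pgp-1* (1.39, adjusted p = 0.0488), whose call was lost under most alternatives and lowest without replicate 4 of the *hsf-1* OE-labelled libraries (0.41, adjusted p = 0.281). The intestinal count was 1 without that replicate and 1 without replicate 3, 1 with the median fold change set to 0 and 7 with housekeeping scaling. Of 8 epidermal genes 4 were called higher, against 22.6% of all genes, namely *dpy-7*, *grd-1* (2.02), *che-14* (1.51) and *sma-1* (1.07). The epidermal count was 2 without replicate 4 of the *hsf-1* OE-labelled libraries. Of 18 body wall muscle genes 15 rose without the fold change threshold, against 38.6% of all genes, and 0 were called. Their median was 0.41, against 0.28 over all genes. With the median set to 0 only 2 of the muscle genes rose. Of 6 pharyngeal muscle genes 0 passed. Genes of all these tissues, of neurons and of the germline passed the filter on low counts.

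Defence genes included members in both directions. Of 22 infection response genes 9 were called higher and 1 lower, against 22.6% and 3.60% of all genes, with a median of 0.86. The count called higher was 14 with housekeeping scaling and 8 with RLE scaling. It was 7 with the median fold change set to 0, and 7 without replicate 4 of the *hsf-1* OE-labelled libraries. *irg-1*, induced by bacterial translation inhibitors, had 458, 699, 1020 and 860 normalized counts, against 89.1, 31.3, 181 and 229 in wildtype (2.51 ± 0.51). *irg-2* (3.19) and *clec-60*, a C-type lectin gene (3.61), were also called higher. *dod-24* was lower, with 382, 207, 213 and 339 against 832, 783, 1099 and 1067 (-1.73 ± 0.22, adjusted p = 0.000246), but not in the *ubql-1(tm1574)* background (-0.13, adjusted p = 0.537), and the difference between backgrounds passed (1.67, adjusted p = 0.0230). *lys-7*, a lysozyme gene chosen after its values were seen, had 2196, 1823, 1487 and 2169, against 537, 858, 743 and 580 (1.499).

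**Figure D5:**
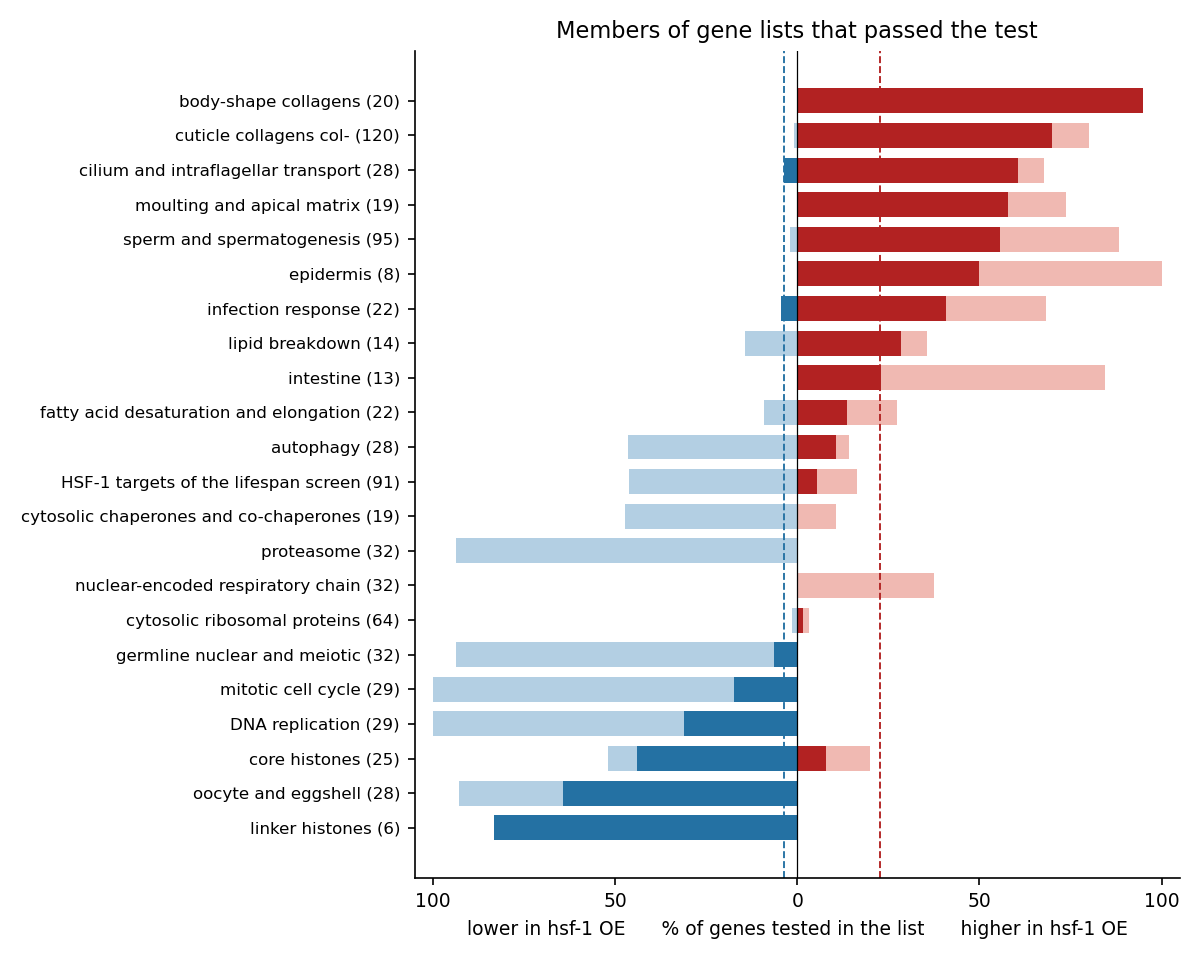
Share of the tested members of each gene list (their number in brackets) that were higher in the hsf-1 OE-labelled libraries, to the right, or lower, to the left, with dark bars for members called and pale bars for those that passed the test without the fold change threshold. Dashed lines mark the 22.6% and 3.60% of all genes called higher and lower; cuticle, cilium and sperm lists pass the first line by far, linker histone, oocyte and replication lists the second, and the HSF-1 target list stays below the first.

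A survey was made of the 59 name families with at least 20 tested members. It is not independent of the lists above, since *col* and *his* hold the same 120 and 25 tested genes and the *spe* genes were also given there. The largest shares called higher were in *spe* (28 of 34), *col* (84 of 120), *nas*, secreted astacin proteases (13 of 20), *oac*, acyltransferase-like proteins (12 of 21), and *dpy* (13 of 24). The largest shares called lower were in *his* (11 of 25, with 2 higher), *fbxc* (5 of 21, with 8 higher), *ceh*, homeobox factors (8 of 36, with 5 higher), *ztf* (4 of 23, with 2 higher) and *bath* (4 of 36, with 3 higher). Members with the largest changes included *nas-14* (3.83), *oac-23* (2.94), *fbxc-58* (3.68), *ceh-40* (-2.52), *ztf-11* (-1.77) and *bath-9* (-2.22). Nuclear pore genes (*npp*, 24 of 26), Mediator subunits (*mdt*, 18 of 20) and mitochondrial ribosomal proteins (*mrpl*, 30 of 41, and *mrps*, 21 of 29) fell mostly without the fold change threshold, while 22 of 30 FMRFamide-like neuropeptide genes (*flp*) rose. Of all genes 28.7% fell and 38.6% rose in that way. These 5 families were chosen after their values were seen, and their counts were not taken under other scalings. Scaling to housekeeping genes moved the median of all genes by 0.36, and the medians of *mrpl* and *mdt* were -0.29 and -0.57.

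Other large falls included F-box genes and signalling genes of several kinds. *fbxa-107* had 31.6, 26.5, 23.0 and 30.8 normalized counts, against 186, 197, 185 and 241 in wildtype (-2.85 ± 0.19, adjusted p = 1.34e-05), and *fbxa-170* (-3.15) and *fbxa-192* (-2.94) fell as steeply, although 46 of 129 *fbxa* genes were called higher and 14 lower. *vang-1*, a planar cell polarity gene, had 47.0, 35.6, 25.1 and 27.7, against 244, 251, 203 and 208 (-2.73). The innexin gene *inx-2* (-2.55), the G protein regulator gene *rgs-11* (-2.30), *flh-3* (-2.58), *pzf-1* (-2.27) and the T-box gene *sea-1* (-2.26) completed the 12 largest falls among well-expressed named genes, with *meg-4*, *hil-2* and *hil-5*.

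On the X chromosome fewer genes were called higher and more were called lower than on the autosomes, shares that are given without a test. Of 2020 genes tested on X 12.4% were called higher and 7.03% lower, while on the 5 autosomes 21.9% to 25.8% were called higher and 1.67% to 3.84% lower. The excess of lower genes on X was not seen without the fold change threshold. Then 37.3% of X genes rose and 13.6% fell, while on the autosomes 34.5% to 42.1% rose and 22.5% to 38.1% fell. In the *ubql-1(tm1574)* background the shares on X were 6.57% and 5.02%, where 12.8% and 1.87% of all genes tested were called. In *C. elegans* the X chromosome is largely silent in sperm-producing germ cells and becomes active in oocytes. Of 292 pseudogenes 36.6% were called higher and of 14293 protein-coding genes 22.3%, with no test of the difference, and 0 of 13 mitochondrially encoded genes were called.

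Over all genes, the transgene was also measured in libraries outside the main comparison, *hsf-1* OE; *ubql-1(tm1574)* against *ubql-1(tm1574)*. There 1939 of 15197 genes tested were called higher (12.8%) and 284 lower (1.87%), and without the fold change threshold 4782 rose (31.5%) and 4206 fell (27.7%). The 1544 genes called higher in both backgrounds were 46.2% of the main comparison's list and 79.6% of the other list. The 220 called lower in both were 41.4% and 77.5% of theirs. Among genes called higher in the main comparison and tested in both, 3255 of 3285 were also positive in the *ubql-1(tm1574)* background, and 516 of 526 called lower were negative there.

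The changes were mostly smaller in that background. The median log2 fold change of the genes called higher was 0.96 there and 1.78 in the main comparison, and that of the genes called lower was -0.89 there and -1.40 in the main comparison, although genes chosen for a large change in one set of libraries are expected to be smaller in another. A test of the difference itself passed for 103 of 15645 genes (0.658%), of which 72 had a lower and 31 a higher fold change with *ubql-1(tm1574)*, while 3035 had an unadjusted p under 0.05. The sperm list had 16 of 95 members called higher (median 0.24, against 1.09 in the main comparison) and the *col-* list 74 of 123 (median 1.45, against 2.68). Of all genes tested in that background 12.8% were called higher, with a median of 0.11. Without the fold change threshold 40 sperm genes rose there and 5 fell, beside 31.5% and 27.7% of all genes. The oocyte list had 2 of 28 called lower (median -0.66, against -1.12), beside 1.87% of all genes, and 27 fell without the fold change threshold. The difference of the lists between backgrounds was not tested.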

How the data were processed

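Reads were mapped with HISAT2 2.0.5 and counted per gene with featureCounts 1.5.0-p3 on WBcel235, per the submitters' processing notes. The authors deposited the resulting raw counts of 8 libraries per table, made from poly(A)-selected mRNA, beside values from DESeq2, namely normalized values per library (48 columns, not used), fold changes and p-values, none of which was used. The annotation release and the use of strand are not given in the sources used here. The replicates are labelled as separate samples, and p-values measure the spread between them.

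The counts of *hsf-1* OE and wildtype were tested with edgeR 4.0.16 in R 4.3.3 (TMM scaling, the default filter on low counts, quasi-likelihood fit, Benjamini-Hochberg adjustment over 14794 genes). Called genes have an adjusted p under 0.05 with a log2 fold change beyond 1 either way. Normalized counts are counts corrected for TMM-scaled library size and brought to the mean library. The same test was fitted to *hsf-1* OE; *ubql-1(tm1574)* against *ubql-1(tm1574)*, and the difference between backgrounds as an interaction over all 16 libraries, whose tables were joined with 17372 unlisted cells (4.57%) set to 0. The fits were tested on simulated data. Gene names came from RefSeq for WBcel235, by locus tag, for 21725 of the 22248 identifiers.

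Deviations of same-numbered libraries from their group means correlated at 0.131, 0.243, 0.299 and 0.210 over 14794 genes. All were above the limit of 0.1, so a fit blocked on that number was run as an alternative. Some differently numbered libraries correlated as strongly, such as *hsf-1* OE replicate 1 with wildtype replicate 2 (0.305) and replicate 3 with wildtype replicate 4 (0.286). Others were as low as -0.411. These values therefore do not single out pairing by number, on which the blocked fit rests. The other alternatives were median-of-ratios (RLE) scaling, scaling to 3 housekeeping genes, the median fold change set to 0, no filter on low counts, 1 CPM in 4 libraries, glmTreat, 1 fit of all 16 libraries, DESeq2 1.42.0, no fold change threshold, and leaving out each library.

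Genes named are *hsf-1*, the 12 largest rises and falls among called genes with a name, a mean of 100 normalized counts and strains that do not overlap, the 10 most abundant called in each direction, the 3 most changed called members of each list in each direction (all members of lists of up to 11), the 2 most changed members of each name family given, and genes at 3 counts or fewer in every library of one strain. Any other gene is said to be chosen after its values were seen. The lists and comparisons were chosen with earlier results of these data known. Exact counting intervals have 95% coverage.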

Additional observations from a re-analysis of the deposited data

Results flagged for a closer look

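Among 60 genes, each strain's 4 libraries were searched for a single library far from the others, by the gap to its nearest neighbour as a share of the whole range. Of 120 groups 12 passed Dixon's 95% critical value, where chance flags about 1 in 20. In the *hsf-1* OE-labelled libraries these were *msp-74* in replicate 3 (0.885), *his-70* in replicate 3 (0.91), *nphp-4* in replicate 1 (0.842), *mks-5* in replicate 1 (0.846), all highest, and *dyf-5* in replicate 4, lowest (0.887). *hil-2* and *his-32* in replicate 4 and *hil-3* in replicate 3 had a share of 1.0 because 1 count stood against 0 in the other libraries. In wildtype they were *hsp-70* in replicate 1 (0.853), *rnr-2* (0.926) and *hil-4* (0.834) in replicate 2, and *F56A4.3* in replicate 2 (1.0, again 1 count against 0).

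The effect of the transgene differed with and without *ubql-1(tm1574)* for 8 of 172 genes tested by name, by the interaction term of edgeR's quasi-likelihood fit. Over all genes it passed for 103 of 15645 (0.658%). Many named genes were chosen for their change in the main comparison, whose libraries also enter this test. That choice favours a smaller effect with *ubql-1(tm1574)*, so the count of 8 cannot be read against the share of all genes. As log2 differences, with *ubql-1(tm1574)* minus without, the effect was lower for *msp-74* (-2.74), *maph-9* (-2.78), *daf-19* (-1.48), *dyf-3* (-2.50) and *F56D2.3* (-3.16). It was higher for *meg-4* (1.98), *dod-24* (1.67) and *ztf-11* (1.62), genes that fell in the wildtype background.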

How the results depend on the processing

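The total of 3873 called genes and the 3341 called higher kept within 1.5 times under all alternatives but glmTreat against a log2 fold change of 1 (1856 in all, 1623 higher and 233 lower) and no fold change threshold (9960, 5711 and 4249). The 532 called lower moved more, to 890 with RLE scaling, 281 with housekeeping scaling, 1371 with the median fold change set to 0, 888 with no filter, 820 in 1 fit of all 16 libraries and 1035 with DESeq2. The share of higher calls was 75.9% with DESeq2 and 73.7% without *hsf-1* OE replicate 1, against 86.3%. Leaving out single libraries gave 3430 to 4402 calls, 2830 to 3650 higher and 489 to 1158 lower, the last without *hsf-1* OE replicate 1. In the *ubql-1(tm1574)* background the range was 1881 to 2559.

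The replicate block gave 3898 calls, 3345 higher and 553 lower. Beyond the changes given in the report for *hsp-16.2*, *hsp-16.41*, *F44E5.5*, *bed-3* and the vitellogenins, it moved no other gene given in the text across either threshold. *hsf-1* had 0.24 with housekeeping scaling, and passed as lower with the median set to 0 (-0.42), in 1 fit of all libraries (-0.27) and with DESeq2 (-0.34). Without single libraries it ran from -0.37 to -0.10, and passed without *hsf-1* OE replicate 3 (adjusted p = 0.0125 in edgeR's test). *hsp-70* ran from -0.015 to 1.48. *col-19* was -0.030 with RLE, -0.15 with the median set to 0, -0.0064 with no filter, -0.00077 in 1 fit of all libraries and -0.059 with DESeq2, and ran from -0.054 to 0.14 without single libraries. Housekeeping scaling turned *nhr-23* to 0.018 and *cdc-48.2* to 0.094. The causes were not tested. Of 2709 pairs of gene and alternative over 170 genes, 2638 kept direction and side of the adjusted p threshold, 41 lost it, 20 gained it and 10 changed sign. Judged by adjusted p and fold change together, of 2725 pairs 2580 kept their call, 26 lost it by adjusted p, 94 by fold change alone, and 25 gained one. The planned motif count in promoters was not run. Genes with under 10 counts per library carry wide counting errors, so their fold changes order them poorly.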

Other observations

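Genes first transcribed in the early embryo did not follow the oocyte genes. Of 7 tested 2 were called higher and 2 lower. *pes-10*, a marker of the onset of embryonic transcription, was higher (4.17), as was the endoderm factor gene *end-3* (2.39), while *vet-2* (-2.65) and *tbx-11* (-1.62) were lower. Among 17 regulators of developmental timing and the moulting cycle, the heterochronic gene *lin-41*, which also acts in oocytes, was called lower (-1.23) and 2 others higher.

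Few ribosomal and stress-resistance genes were called. Of 64 cytosolic ribosomal protein genes 1 was called, *rpl-42* (1.79), with a list median of 0.04, although without the fold change threshold 56 rose with housekeeping scaling and 46 fell with the median fold change set to 0. Of 17 insulin pathway targets and antioxidant genes 1 was called, the glutathione transferase gene *gst-10* (1.18), with a median of 0.00, and 4 were called higher with housekeeping scaling. Both medians change sign when the median fold change of all genes is set to 0. Of 4 coelomocyte genes 1 was called, *unc-122* (1.09), a share near the 22.6% of all genes, and it lost the threshold with the median set to 0 (adjusted p = 0.0573) and with DESeq2 (adjusted p = 0.0658). Among the most abundant genes called, *dod-19* (1.23), the non-muscle myosin gene *nmy-1* (1.15), the intermediate filament gene *ifc-2* (1.08) and *kola-4* (1.02) were higher, and *clec-87* (-1.15), *gfat-2* (-1.19) and *nasp-2* (-1.07) were lower.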
